A study of Homo sapiens with 6 samples.

Results

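ABCA1, the membrane pump that moves cellular cholesterol and phospholipid onto apolipoprotein A-I, was examined together with 9 other genes of the liver X receptor (LXR) route of cholesterol export in ES-2, an established line of human ovarian cancer cells. Every probe set whose platform annotation named exactly 1 of these genes was taken, which gave 25 probe sets for 9 of the 18132 genes read in this way, out of 44988 probe sets that name 1 gene. No probe set named NR1H2, the gene of LXR-beta, so the tenth gene was not analysed here. The genes were chosen by a rule made with the comparison below in view, that is, with the log2 fold change of ABCA1 between the labelled groups already known. Fold changes of the 25 probe sets are therefore given as a description, with an error but without a p-value. The 6 Affymetrix PrimeView arrays, which read each transcript with 1 or more probe sets, carried total RNA from log-phase ES-2 cells. By their labels, CADM1 was overexpressed in the cells of 3 arrays, and the other 3 held ES-2 cells without that label, the mock controls of the series. No drug, time point or clone is given, and nothing states that replicate arrays stand for separate cultures.

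LXRs are nuclear receptors that bind oxysterols, work as heterodimers with retinoid X receptors (RXRs) and sit on DNA at paired hexamer repeats spaced by a few bases. Their target genes send cholesterol out of the cell (ABCA1, ABCG1), carry it in lipoproteins (APOE, APOC1, PLTP), lower its uptake (MYLIP) and remodel phospholipids (LPCAT3). LXRs are best known in macrophages and liver. In sterol synthesis and uptake they work opposite to the SREBP factors, which turn these on when cholesterol is scarce. SREBF1, the gene of the SREBP-1 factors, is itself a reported LXR target.

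The targeted gene, CADM1, went against the labels in its brightest probe set. The brightest CADM1 probe set averaged 8.14 ± 0.040 (SD, n = 3) on the log2 scale in the arrays labelled overexpression and 10.26 ± 0.030 (SD, n = 3) in those labelled control, and limma called no other of its 6 probe sets. The next brightest went with the labels, at a log2 fold change of 0.17 and with groups that did not overlap (limma, adjusted p = 0.0975). The rest gave 0.04, 0.04, -0.01 and -0.06 in order of falling level, all with overlapping groups. The source names of 2 arrays labelled overexpression read CADM2 and CADM3, while their titles and genotypes read CADM1. Whether the labels fit the arrays, and whether the probe sets lie within the introduced sequence, was not tested. Directions below are those of the labels, and every signed value would turn if the labels were exchanged. Array medians ran from 6.18 to 6.20, and arrays correlated at 0.9981 to 0.9988 over 49293 probe sets. Of these, 735 were called by limma at an adjusted p under 0.05, which is 1.49% (0.605% higher under the overexpression label and 0.887% lower), and 17.4% had groups that did not overlap (8.50% higher, 8.94% lower). Left-out arrays changed that count to 241 (first under the overexpression label), 364 (second), 269 (first control) and 385 (second control).

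The promoter of ABCA1 is shown because it was the 1 member window that held a match to the LXR type of repeat. The 250 bases before its transcript start lie at chr9:104928156-104928405 of GRCh38.p14, on the minus strand, and are printed from RefSeq in the direction of transcription with the match in capitals.
ABCA1 promoter: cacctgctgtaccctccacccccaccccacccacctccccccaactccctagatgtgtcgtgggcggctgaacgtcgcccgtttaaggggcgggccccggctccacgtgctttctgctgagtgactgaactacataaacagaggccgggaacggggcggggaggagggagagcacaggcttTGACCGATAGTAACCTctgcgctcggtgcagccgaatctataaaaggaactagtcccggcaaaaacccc

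The motif searched was the direct repeat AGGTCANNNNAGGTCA, on both strands, with at most 2 mismatches among its 12 fixed letters. In ABCA1 the match lay 69 to 54 bases before the start, read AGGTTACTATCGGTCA on the opposite strand and had 2 mismatches. Of 35116 RefSeq promoter windows of 300 bases (250 before and 50 after a start), 2.34% held such a match. RefSeq windows were at hand for 8 of the 10 genes, NR1H2 among them, 14 in all (none for ABCG1 or SMPDL3A), and the other 13 had at least 3 mismatches everywhere. The ABCA1 window also held the E-box CACGTG, found in 7.26% of all windows, and the GC box GGGCGG, found in 45.0%. A match of letters is a description of the sequence, and binding was not measured.

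ABCA1 was higher in the arrays labelled overexpression. Its brightest probe set, 11739503_at, read 7.67, 7.74 and 7.84 in these 3 arrays and 6.98, 7.08 and 7.03 in the controls. The groups stood well apart, with the lowest array labelled overexpression above the highest control array. The log2 fold change was 0.72 ± 0.052 (SE, 3 arrays a group), a 1.64-fold higher signal, with a 95% interval of 0.61 to 0.83. With the signs as labelled, it was the largest positive change among the 49293 probe sets.

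The other 2 ABCA1 probe sets were dimmer and did not share 1 sign. The second, 11739502_a_at, read 4.84, 4.80 and 4.71 in the arrays labelled overexpression against 4.40, 4.40 and 4.52 in the controls. These groups did not overlap either, and the log2 fold change was 0.34 ± 0.081 (SE). The third, 11760079_at, read 2.62, 2.68 and 2.91 against 2.97, 2.69 and 3.05, so its groups overlapped, at a log2 fold change of -0.17 ± 0.100 (SE). Its mean of 2.82 lay below 97.4% of all probe sets. Detection calls were not used here, so whether it reads ABCA1 in these cells is unknown.

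ABCG1, the transporter that passes cholesterol on to mature high-density lipoprotein, was higher by a smaller step in each of its 5 probe sets. The brightest, 11725515_a_at, read 6.84, 6.73 and 6.83 in the arrays labelled overexpression and 6.70, 6.49 and 6.64 in the controls. The groups did not overlap, though the gap between the closest arrays was narrow, and the log2 fold change was 0.19 ± 0.063 (SE). The second by level, 11725517_x_at, gave 0.18 ± 0.071 (SE), with its groups overlapping by 1 array.

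The dimmer ABCG1 probe sets gave like values. Probe set 11750659_a_at gave 0.18, 11725516_s_at gave 0.21 and 11726492_a_at gave 0.23, all 3 with groups that did not overlap. The mean of the 5 probe sets differed by 0.20 on the log2 scale. They read 1 gene on the same 6 arrays, so they are not 5 independent measurements, and their places on the transcript are not known here.

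MYLIP, also known as IDOL, is a ubiquitin ligase that lowers the uptake of lipoprotein cholesterol. Its probe set 11757972_s_at read 7.56, 7.58 and 7.67 in the arrays labelled overexpression and 7.42, 7.46 and 7.43 in the controls, a log2 fold change of 0.16 ± 0.045 (SE). Probe set 11718006_a_at read 7.47, 7.52 and 7.53 against 7.32, 7.41 and 7.29 and gave 0.16 ± 0.046 (SE). In both, all 3 arrays labelled overexpression were above all 3 controls. The dimmest, 11718007_a_at, gave 0.04 ± 0.075 (SE) with overlapping groups.

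**Figure D1:**
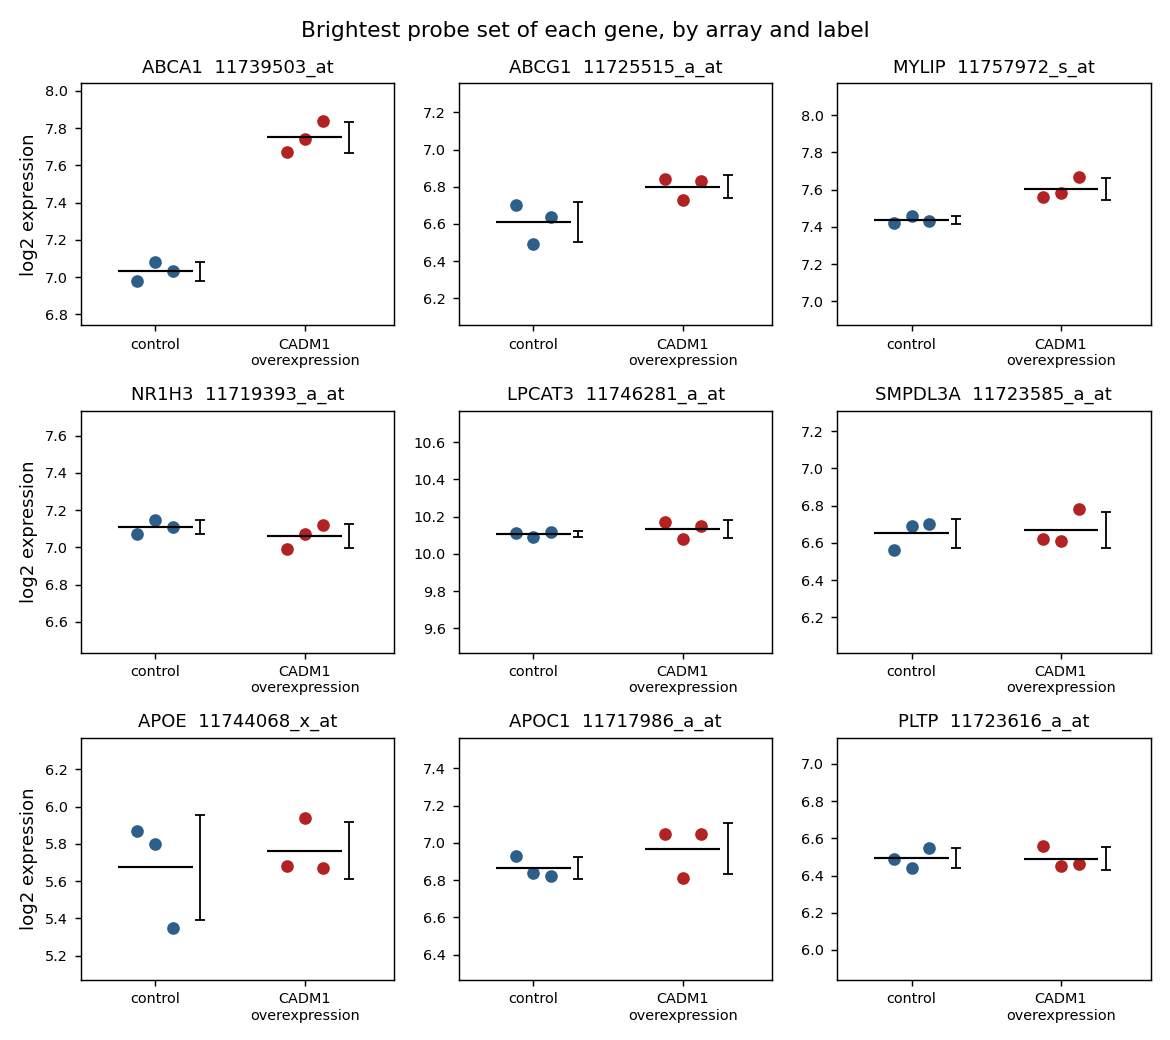
Log2 expression of 1 probe set for each of the 9 measured genes. Points are arrays, lines the means and bars the SD of the 3 arrays. The probe set is the brightest not of the _x_at type, except for APOE, whose only probe set is of that type. For LPCAT3 an _x_at probe set was slightly brighter, with a mean of 10.13 against 10.12. Each vertical axis spans the same number of log2 units; the ABCA1 groups stand 0.72 apart, those of ABCG1 and MYLIP 0.19 and 0.16, and the other 6 overlap.

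The receptor was measured by 1 probe set. NR1H3, the gene of LXR-alpha and in some cells its own target, read 6.99, 7.07 and 7.12 in the arrays labelled overexpression and 7.07, 7.15 and 7.11 in the controls. The groups overlapped, and the log2 fold change was -0.05 ± 0.051 (SE), with a 95% interval of -0.16 to 0.06. The interval leaves room for a small fall or a smaller rise.

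LPCAT3, which loads polyunsaturated fatty acids into phospholipids, was read brightly and tightly by most of its 5 probe sets. Probe set 11746281_a_at read 10.17, 10.08 and 10.15 in the arrays labelled overexpression and 10.11, 10.09 and 10.12 in the controls. The arrays were mixed in order, with 0.02 ± 0.028 (SE) as log2 fold change and a 95% interval of -0.04 to 0.08. The other 4 ran from -0.04 for 11755123_x_at to 0.03 for 11757009_x_at, and all 5 had overlapping groups. This is the gene whose change was most narrowly bounded among the 9.

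SMPDL3A, a secreted phosphodiesterase related to acid sphingomyelinase, read 6.62, 6.61 and 6.78 in the arrays labelled overexpression and 6.56, 6.69 and 6.70 in the controls. Its groups overlapped at a log2 fold change of 0.02 ± 0.064 (SE), with a 95% interval of -0.12 to 0.16.

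The genes of lipoprotein particles did not separate the groups. PLTP, the phospholipid transfer protein of plasma, read 6.56, 6.45 and 6.46 against 6.49, 6.44 and 6.55, 0.00 ± 0.059 (SE) as log2 fold change, with a 95% interval of -0.13 to 0.13. APOE, the apolipoprotein that binds lipoprotein receptors, had a single probe set, whose type (_x_at) may pick up other transcripts. It read 5.68, 5.94 and 5.67 in the arrays labelled overexpression and 5.87, 5.80 and 5.35 in the controls. The third control array stood low, and the control SD of 0.278 was the widest among the 25 probe sets. The log2 fold change of 0.09 ± 0.117 (SE) became -0.07 without that array. It was 0.19 without the first control, 0.16 without the second and 0.00 without the second array labelled overexpression.

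APOC1, a small apolipoprotein encoded beside APOE, had 5 probe sets, 3 of them of the _x_at type. The brightest, 11717986_a_at, read 7.05, 6.81 and 7.05 in the arrays labelled overexpression and 6.93, 6.84 and 6.82 in the controls, a log2 fold change of 0.11 ± 0.066 (SE). The second array labelled overexpression lay below all 3 controls, and without it the value was 0.19. The other 4 gave 0.10, -0.05, 0.03 and 0.11 in order of falling level, and each of the 5 had overlapping groups.

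Of all 25 probe sets, 20 averaged higher and 5 lower where overexpression was the label, with a median log2 fold change of 0.09, against 0.00 over all 49293. The threshold used for all probe sets was passed by 1, the brightest of ABCA1, which is 4.0% of the 25 beside 1.49% of all. The 8 probe sets whose groups did not overlap were all higher, 32.0% of the 25 beside 8.50% of all, and they belonged to ABCA1 (2), ABCG1 (4) and MYLIP (2). Nothing is read from these shares, since the contrast was known when the genes were picked and probe sets of 1 gene share its RNA.

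**Figure D2:**
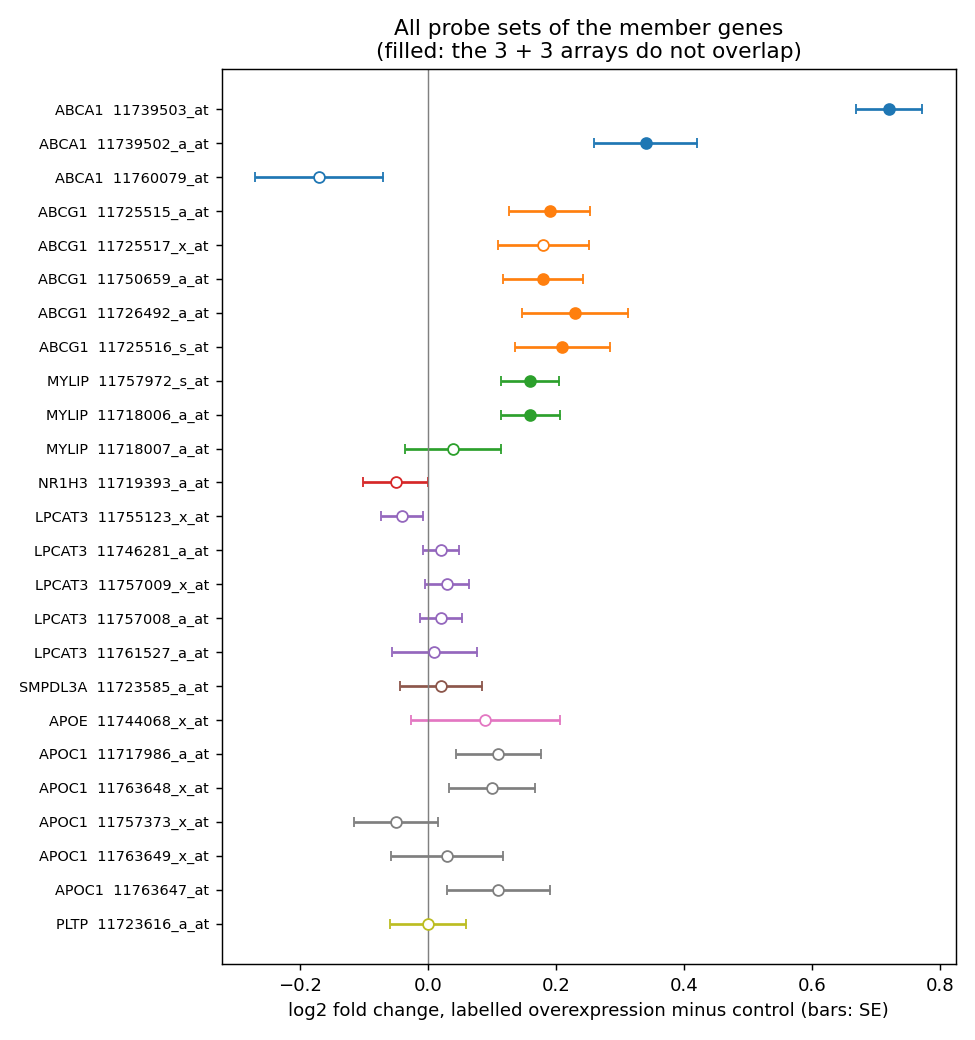
Log2 fold change (labelled overexpression minus control) of each of the 25 probe sets with its SE from limma, coloured by gene; filled points mark probe sets whose 3 and 3 arrays do not overlap. The 8 filled points belong to ABCA1, ABCG1 and MYLIP, and the probe set furthest to the left, at -0.17, is the dimmest of ABCA1.

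**Figure D3:**
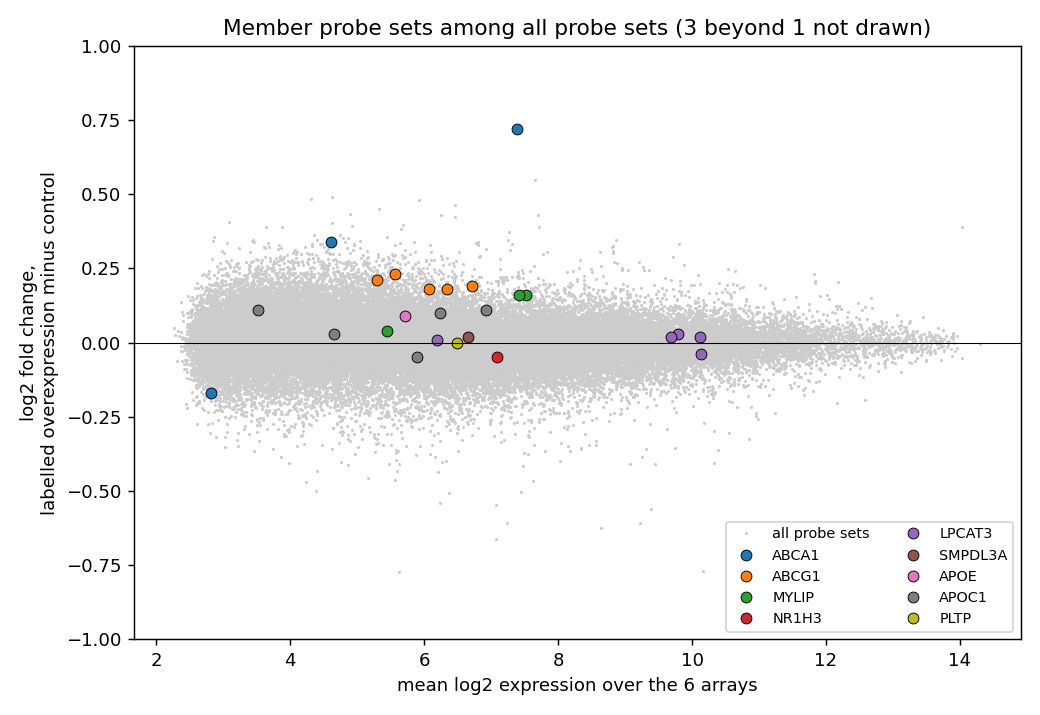
Log2 fold change against mean log2 expression for all probe sets (grey) and the 25 members (coloured by gene). The brightest ABCA1 probe set, at 7.39 and 0.72, lies above all others drawn, while the remaining members lie within the grey cloud or at its edge; 3 probe sets beyond 1 on the negative side are outside the axis.

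Lists of related genes were then read from the same fit, with 1 probe set per gene. Of all 18132 genes so read, 1.77% were called by limma, 0.816% higher and 0.954% lower. An unadjusted p under 0.05 (limma) was found for 2513 of the 18132, the background for list counts at that level. Every call named from these lists was lost in the fit without a mean-variance trend. Of 15 measured RXR partners and cofactors of LXR none was called (limma), and 4 had an unadjusted p under 0.05. RXRA, the common partner, read 8.89, 8.95 and 8.93 in the arrays labelled overexpression and 9.02, 9.01 and 8.99 in the controls. All 3 arrays labelled overexpression lay below the controls, by -0.08 ± 0.030 on the log2 scale (SE; limma, adjusted p = 0.254). TBL1X, a part of the corepressor complex, gave -0.09 (limma, adjusted p = 0.25), a sign shared by 3 of its 7 probe sets. The list ran from -0.09 to 0.17, around a median of 0.04.

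Other reported LXR targets were mostly near 0. Of 14 measured, 2 rose and none fell (limma), with a list median of 0.03 beside 0.01 over all genes. Many of the 14 were dim, with 4 averaging below the 25th percentile of all probe sets. These were MERTK at 3.12, ABCG5 at 3.56, CYP7A1 at 3.64 and CETP at 3.95. APOC2 at 4.40 and ABCG8 at 4.46 were little brighter. Whether such dim targets are expressed in these cells is unknown, so their small changes are not read as a lack of response. LPL, the lipase that frees fatty acids from lipoproteins, read 10.85, 10.85 and 10.88 in the arrays labelled overexpression and 10.67, 10.65 and 10.69 in the controls. It rose by 0.19 ± 0.022 (SE; limma, adjusted p = 0.000599), with all 3 of its probe sets of that sign. SREBF1, which encodes the SREBP-1 factors of lipid synthesis, rose by 0.15 ± 0.034 (SE; limma, adjusted p = 0.0484). The SREBF1 call was lost when any 1 of the 6 arrays was left out, with values of 0.12 to 0.17 over the alternatives. A pair of lipogenic targets of SREBP-1 and LXR was not called. SCD gave -0.08 (limma, adjusted p = 0.0933) and FASN -0.03 (limma, adjusted p = 0.880). The SCD groups did not overlap, and all 4 of its probe sets were lower under the overexpression label. Those of FASN overlapped.

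The relatives of both transporters were not called. Of 11 other ABCA transporters none passed (limma), 1 had an unadjusted p under 0.05, and the median was 0.02. ABCA3, the lipid pump of lung surfactant, gave -0.14 ± 0.049 (SE; limma, adjusted p = 0.213), and ABCA4, of the retina, gave 0.15 ± 0.070 (SE; limma, adjusted p = 0.391). ABCA7, a close relative of ABCA1, gave 0.01 (limma, adjusted p = 0.959). Of 4 other ABCG transporters none was called, and none had an unadjusted p under 0.05 (limma). ABCG4, ABCG5 and ABCG8 of this list were also counted among the LXR targets above. ABCG5 and ABCG8, which form the sterol pump of liver and gut, gave -0.14 and 0.10 from low means of 3.56 and 4.46.

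Genes of cholesterol handling inside the cell held 1 call among 26 measured. LIPA, the lysosomal acid lipase that frees cholesterol from lipoprotein esters, read 10.20, 10.23 and 10.22 in the arrays labelled overexpression and 10.38, 10.41 and 10.41 in the controls. It fell by 0.19 ± 0.023 (SE; limma, adjusted p = 0.000832), and both of its probe sets had that sign. Of the 26, 7 had an unadjusted p under 0.05 (limma), 11 were higher on average and 15 lower, and the list median was -0.01. The uncalled 6 are named after their values were seen. SOAT2 at 0.21, LCAT at 0.19, GRAMD1B at 0.13 and LRP8 at 0.09, the last with its other probe set of the opposite sign, had groups that did not overlap. NPC1, which moves cholesterol out of lysosomes, gave -0.14 and the lipoprotein receptor SCARB1 -0.08, both with overlapping groups.

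None of 9 enzymes that make or clear oxysterols, the LXR ligands, was called, with 2 at an unadjusted p under 0.05 (limma). CYP11A1, the side-chain cleavage enzyme of steroid synthesis, gave -0.22 ± 0.056 (SE; limma, adjusted p = 0.0665) with groups that did not overlap. EBP, an isomerase of sterol synthesis, gave -0.07 ± 0.029 (SE; limma, adjusted p = 0.323) with overlapping groups. CH25H, which makes 25-hydroxycholesterol, averaged 2.86, near the low end of the scale, and CYP27A1 gave 0.09 ± 0.072 (SE). Of 13 other lipid-sensing nuclear receptors none was called and 2 had an unadjusted p under 0.05, with VDR at -0.16 and PPARA at -0.12 (limma, adjusted p = 0.221 and 0.283). All 4 VDR probe sets had that sign, but only 4 of the 9 of PPARA.

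SREBP and sterol synthesis genes held the most calls of these lists, 5 lower and 1 higher among 22, with a median of -0.07. MSMO1 read 9.13, 9.16 and 9.09 in the arrays labelled overexpression against 9.48, 9.43 and 9.54 in the controls, and with SQLE, DHCR7, INSIG1 and HMGCS1 it made up the 5 that fell. INSIG1 and HMGCS1, named after their values were seen, fell by 0.13 each, and both lost the call in at least 5 of the 6 fits that left out 1 array. DHCR7 lost it without the first array labelled overexpression. The 6 calls of this list became 2 without that array, and 3 without the second or the third of that label or the first or the third control.

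**Figure D4:**
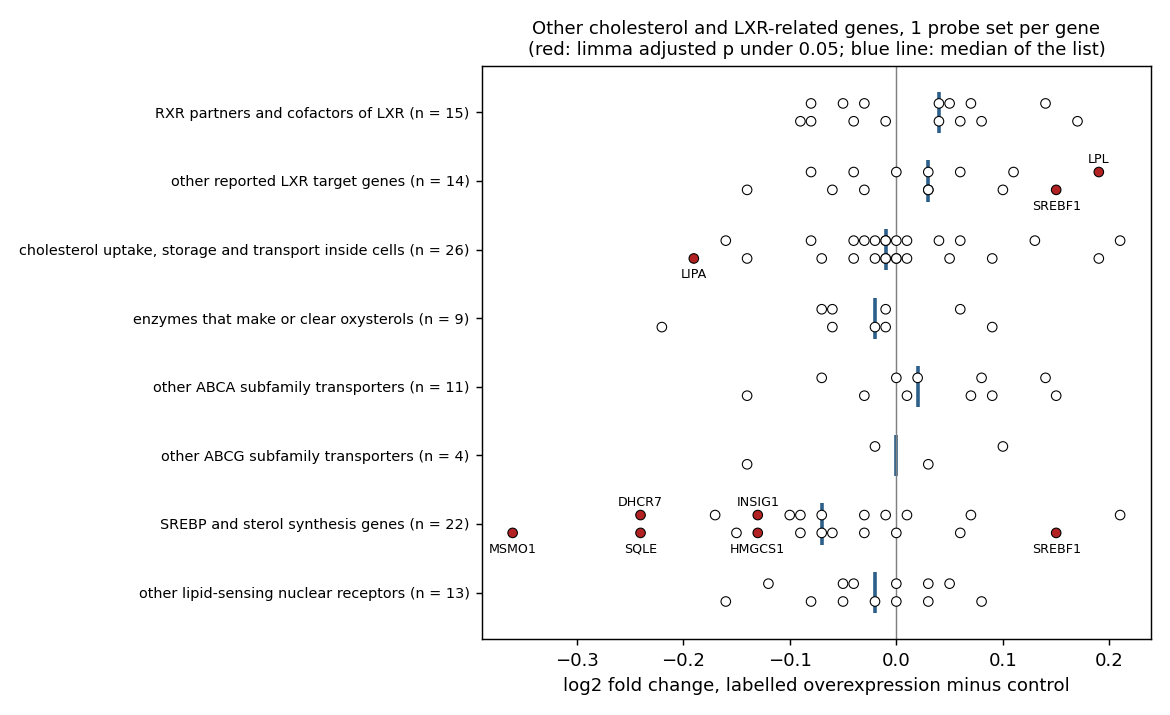
Log2 fold changes of single genes in 8 lists of related genes, with the median of each list as a blue line and called genes (limma, adjusted p under 0.05) in red. Calls stand on the positive side for LPL and SREBF1 and on the negative side for LIPA and 5 sterol genes. SREBF1, ABCG4, ABCG5 and ABCG8 each appear in 2 lists.

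Among 310 other called genes with a mean no lower than the median probe set, those closest to ABCA1 over the 6 arrays were SGMS1 (Pearson r = 0.996), RAPGEF2 (0.996), SRXN1 (0.994), ZBTB41 (0.991) and H1-2 (0.989). These arrays form only 2 groups, and the genes were restricted to those that differ between them, so high correlations follow from the choice and carry no test. SGMS1, a sphingomyelin synthase, read 9.11, 9.15 and 9.16 in the arrays labelled overexpression and 8.98, 9.0 and 8.99 in the controls, a log2 fold change of 0.15. SRXN1, which repairs oxidised peroxiredoxins, gave 0.24, ZBTB41 0.21, the histone gene H1-2, whose family holds close copies, 0.17 and RAPGEF2, an activator of RAP GTPases, 0.12. All 5 differed less than ABCA1. Of the 16 alternatives, RAPGEF2 was called in 8 and SGMS1 in 10, and each of the other 3 in 15. RAPGEF2 lost its call whichever array was left out, SGMS1 without the first or second array of either label, and all 5 without a mean-variance trend.

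Markers of the labelled cell type were mixed. KRT7, KRT8, KRT18 and VIM averaged 12.50, 12.98, 13.26 and 13.01. In contrast, KRT19 averaged 5.54, PAX8 4.65, WT1 4.24, MUC16 5.46 and EPCAM 2.95. EPCAM and WT1 lay below the 25th percentile of all probe sets, 4.30. None of the 9 measured was called, and 3 had an unadjusted p under 0.05 (limma). These were KRT18 at -0.07, KRT7 at -0.06 and KRT8 at -0.04, each with groups that did not overlap. VIM went the other way at 0.03, also with groups that did not overlap. Macrophages, liver and fat, where LXR genes are prominent, were looked for by their markers. Of 11 macrophage markers none was called or had an unadjusted p under 0.05 (limma), and 6 averaged below the 25th percentile of all probe sets. PTPRC averaged 2.96 and CD14 4.22, but CD68 averaged 7.45 and TYROBP 6.78, both above the median probe set. The summed log2 level of the 11 ran from 50.9 to 51.1 in the arrays labelled overexpression and from 50.4 to 51.6 in the controls. Of 9 hepatocyte markers none was called and 1 had an unadjusted p under 0.05 (limma), with ALB at a mean of 3.78 and FGB at 3.71. The summed log2 level of the 9 ran from 38.9 to 39.9 against 38.9 to 39.0, and 6 of them averaged below the 25th percentile of all probe sets. In the arrays labelled overexpression 8 of 9 were higher on average, beside 9896 of all 18132 genes. The groups of 3 did not overlap, all higher, which is 33.3% beside 9.68% of all genes. These were ALB at 0.18, SERPINA1 at 0.15 and CYP3A4 at 0.13. FGB, the 1 that was lower, gave -0.20 with overlapping groups. The part of these markers in the ABCA1 result was not tested. The 5 adipocyte markers, FABP4 and PLIN1 among them, gave no call and no unadjusted p under 0.05 (limma), with sums of 22.0 to 22.3 and 22.0 to 22.5. In RNA from whole cultures, more cells with a transcript and more transcript per cell cannot be told apart.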

How the data were processed

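A single table gave log2 values of 49395 probe sets on 6 arrays. The authors made the deposited log2 values with MAS5, per the submitters' processing notes, with no version or setting; the log base was inferred from the range and near-equal medians, and how arrays were scaled to each other is not stated. The tight low end looks unlike MAS5, so the summary method is unsettled, and with it the meaning of dim values and of fold sizes. Gene names came from the platform's annotation (44961 of 44988 matched the current gene table). Control probe sets (102) were left out, and no filter or further normalization was applied.

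The 49293 other probe sets were fitted with limma 3.58.1 in R 4.3.3 (lmFit, eBayes with a mean-variance trend), with two-sided tests and Benjamini-Hochberg adjusted p-values over all of them; a probe set was called under 0.05. The p-values cover only array-to-array spread, possibly technical. The number of arrays limits the precision. Lists used 1 probe set per gene (highest mean, the _x_at type only where a gene has no other). Genes named from a list were up to 4 called by size of change, or else the 2 of lowest p. A few others, given as values, were chosen after their values were seen, and listed genes without a probe set of their own were not analysed here. Also named were the 5 called genes most correlated with ABCA1. Members and lists were chosen with earlier results of these data known. The script was tested on simulated data. The alternatives were 2 normalizations, an offset of 16, 2 filters on dim probe sets, 1 probe set per gene, 2 variance models, array weights, the replicate block and leaving out each array. Replicate numbers did not pair the arrays. Figures used matplotlib 3.10.9 in Python 3.11.15.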

Additional observations from a re-analysis of the deposited data

How the results depend on the processing

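Over the 16 alternatives the brightest ABCA1 probe set gave 0.65 (offset of 16) to 0.76, and 0.67 to 0.76 when 1 array was left out. Of the 25 member probe sets, 17 kept 1 sign under every alternative run on them; the other 8 had log2 fold changes of 0.00 to 0.09. With quantile normalization 2 member probe sets were called in place of 1, the second being MYLIP 11757972_s_at. With the offset, the 25th percentile filter, a robust prior and array weights the second was ABCA1 11739502_a_at. Nothing is read from these member counts, since the contrast was known when the genes were picked. The offset lowered ABCA1 11739502_a_at to 0.21 and ABCG1 11725516_s_at to 0.15. Against 735 called probe sets there were 17 without a trend (17.6% of them higher, against 40.5%), 392 with 1 probe set per gene, 377 with the replicate block and 241 to 692 with 1 array left out. Without a trend the LXR target, transport and sterol lists had 0 calls. With the replicate block the LXR targets had 1 and the sterol genes 3. LXR targets had 1 with a robust prior and 1 whichever array was left out, and sterol genes 2 to 4. The oxysterol list had 1 call with probe sets at or above the median and with array weights, and the ovarian tumour markers 1 with the former. The deviations of same-numbered arrays correlated at 0.113, -0.083 and -0.081, so the numbers were not taken as pairs. Between differently numbered arrays they ran from -0.106 to 0.172, the latter for the third array labelled overexpression and the second control. Whether the arrays pair in another order was not tested. Detection calls were not used, which limits what can be said of dim probe sets.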
